A study of Danio rerio with 6 samples.

Results

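The regions described here are the open chromatin regions of the long arm of zebrafish chromosome 4, taken as every merged region of that chromosome that starts at or beyond 30 Mb in the Zv9 assembly. Peaks from the 6 libraries were joined into a union region wherever they shared 1 bp or more. Of 187225 such regions, 1062 lay in the long arm, and they spanned 32.1 Mb up to the end of the last region at 62.1 Mb. Chromosome 4 before 30 Mb held 3955 regions and the other numbered chromosomes held 175756.

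The libraries came from Tg(fli1a:egfp) embryos, a line in which the promoter of fli1a drives green fluorescent protein, at 24 hours after fertilization. Nuclei were sorted into a GFPplus fraction, labelled as endothelial cells, and a GFPminus fraction of the same embryos, labelled as non-endothelial cells. Each fraction was collected on 3 separate occasions, with 20000 nuclei in each library. All 6 libraries carry the transgene, so the fractions differ in fluorescence and not in genotype. The fli1a promoter is known to be active also in some cranial neural crest derivatives and blood cells. ATAC-seq measures open chromatin through the insertion of sequencing adapters by a transposase, and a peak is an interval where the caller found more insertions than its background rate. In a sorted bulk sample, fewer open nuclei and less opening in each nucleus cannot be told apart. The cell type labels were not checked against marker genes, because no gene positions of the Zv9 build were used.

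The long arm of zebrafish chromosome 4 is known as a mostly heterochromatic arm. It replicates late, is rich in repeats, and carries large clusters of NOD-like receptor genes, zinc finger genes and small RNA genes. In natural zebrafish strains the end of this arm carries the major sex-linked locus. Heterochromatin is densely packed and gives the transposase little access to DNA.

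The deposited lists held 72695, 73716 and 50396 peaks in GFPplus replicates 1, 2 and 3. The GFPminus lists held 113476, 110663 and 33437 peaks. Sequencing depth per library was not analysed here, so counts of peaks were compared between places within a library. Between fractions, the share of each list was used, and each list was also shortened to its 33437 strongest peaks. Between 30 and 58 Mb of the long arm, GFPplus replicate 3 had the lowest sharing of peaks of the 6 libraries, as described further on. The sharing of regions is therefore given with and without it.

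In all 6 libraries the long arm held fewer peaks per Mb than the rest of chromosome 4. The GFPplus libraries had 10.6, 11.5 and 6.92 long arm peaks per Mb, against 58.2, 55.0 and 37.2 before 30 Mb. The GFPminus libraries had 20.6, 19.1 and 4.74 long arm peaks per Mb, against 79.8, 77.4 and 22.7 before 30 Mb. Each library's long arm value was below that library's own value in the rest of the chromosome, while the shortest GFPminus list had fewer peaks in both places. The mean ratio was 4.69-fold, a difference of −2.23 ± 0.21 (SD, n = 6) on the log2 scale, and the ratio in single libraries ran from 3.88 to 5.49. Against the other numbered chromosomes, which held 24.5 to 82.2 peaks per Mb, the mean ratio was 4.70-fold (−2.23 ± 0.17 on the log2 scale, n = 6). An exact two-sided sign-flip test over libraries gave p = 0.03125 for each comparison, the smallest that 6 libraries allow. After Benjamini-Hochberg adjustment over the 9 tests made here the value was 0.141 for both, so neither passed a threshold of 0.05 although the density was lower in 6 of 6 libraries. Over 9 tests, this smallest p can pass after adjustment only if most of the tests reach it. The adjusted value for density therefore depended on the other tests too. The p-values measure only the spread between libraries of the same line. GFPplus and GFPminus nuclei came from the same embryos, so the 6 libraries may not be independent, as each sign-flip test over 6 libraries assumes. Counted as 3 pairs, the smallest p that the sign-flip test allows would be 0.25.

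The low density did not hold along the whole arm. In windows of 1 Mb, the first 28 windows held 4 to 37 union regions, with a median of 12. The last 4 full windows, from 58 Mb, held 110 to 211, with a median of 150.5. Windows before 30 Mb held 30 to 213 (median 133.5), and the 1282 windows of the other chromosomes held 8 to 280 (median 134). Of those 1282 windows, 13 (1.01%) had as few as the 37 regions of the fullest window between 30 and 58 Mb. The step at 58 Mb was chosen after these windows were seen, so the values on either side of it are a description with no test. The 28 Mb from 30 to 58 Mb are called the interior, and the remaining 4.09 Mb the distal part.

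**Figure D1:**
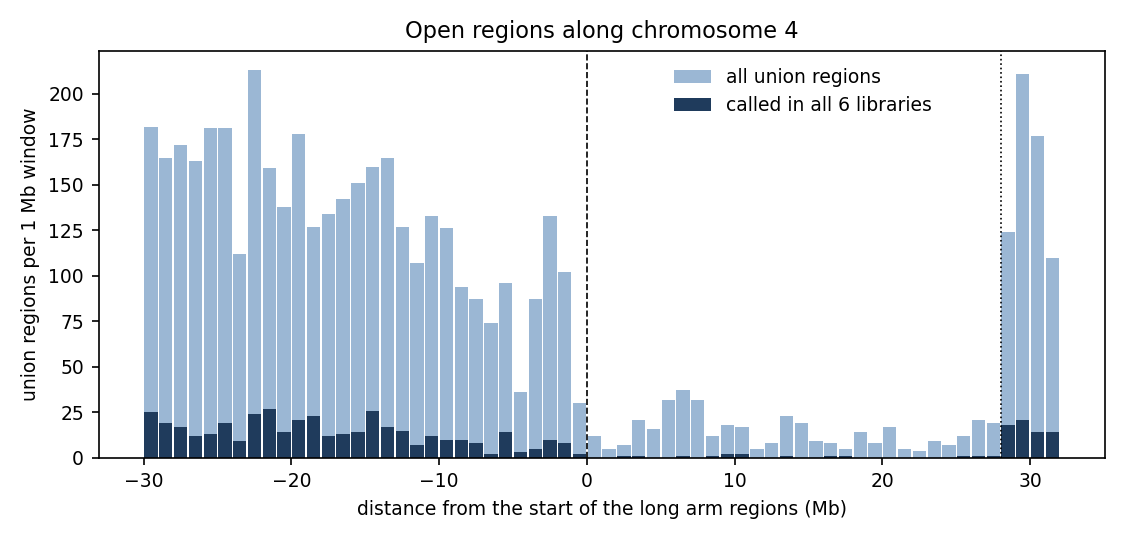
Union regions in each 1 Mb window of chromosome 4, by distance in Mb from the start of the long arm (dashed line). Light bars count all union regions and dark bars those called in all 6 libraries. Between the dashed line and the dotted line, 28 Mb further on, the windows hold 4 to 37 regions, and beyond it the full windows hold 110 to 211.

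The interior covered 87.2% of the span and held 402 of the 1062 regions (37.9%). The distal part covered 12.8% of the span and held the other 660 (62.1%). The density of union regions was 14.4 per Mb in the interior and 161 per Mb in the distal part. The other 24 numbered chromosomes, each taken whole, lay between 119 and 152 regions per Mb, so the distal part lay above each of them. In single libraries, the interior held 9.51 to 16.0 times fewer peaks per Mb than the other chromosomes, with a mean ratio of 12.5. The distal part held 0.974 to 1.24 times the peak density of the other chromosomes. Few peaks per Mb were therefore found in the interior and not in the distal part. Peak density alone does not show whether chromatin is closed. The part that reads aligning to several places play in these densities was not tested.

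**Figure D2:**
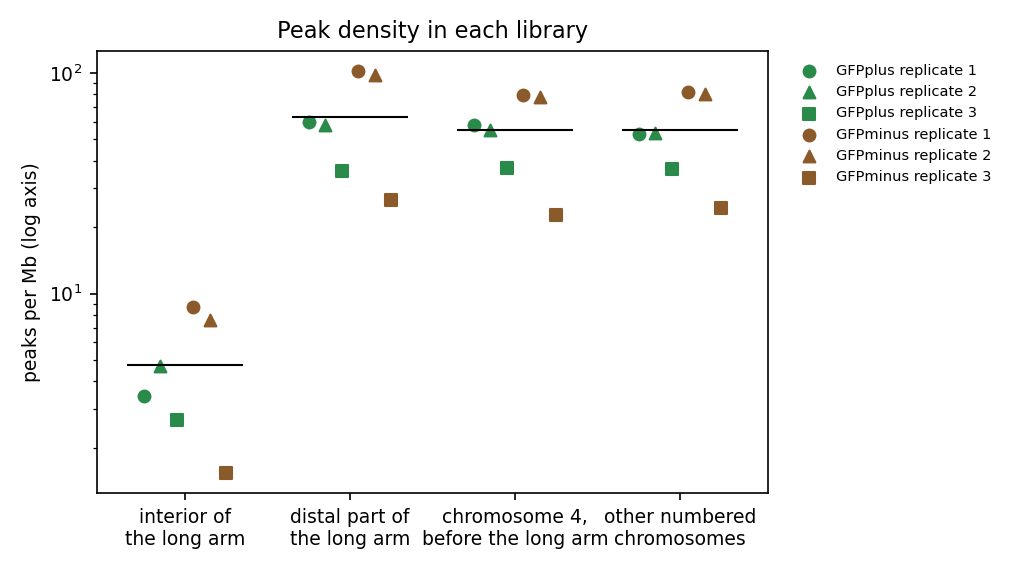
Peaks per Mb in each library, on a log axis, in the interior, the distal part, chromosome 4 before the long arm and the other numbered chromosomes. Each symbol is a library and the line is the mean over 6 libraries. The interior values, 1.54 to 8.64 peaks per Mb, lie below all values in the other 3 places, and the distal values run from 26.6 to 102.

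The emptiest interior windows lay near its start, in its middle and towards its end. The window that begins at 52 Mb held 4 regions, and those that begin at 31, 41, 47 and 51 Mb held 5 each. In the window at 52 Mb, the GFPplus libraries gave 1, 1 and 0 peaks and the GFPminus libraries 1, 3 and 1. The fullest windows began at 59 Mb, with 211 regions, at 60 Mb, with 177, and at 58 Mb, with 124. In the window at 59 Mb the GFPplus libraries gave 71, 70 and 38 peaks and the GFPminus libraries 129, 132 and 31.

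Most of the interior consisted of long stretches with no peak in any of the 6 libraries. It held 94 gaps of more than 100 kb, which made up 79.8% of its span, whereas such gaps made up 5.76% of chromosome 4 before 30 Mb and 5.92% of the other chromosomes. The longest, chr4:52614992-53471292 (Zv9), was 856 kb, and no other gap on a numbered chromosome was as long. Of the 20 longest gaps on the numbered chromosomes, 11 lay in the interior, which is 2.06% of the summed span. The distal part had no gap over 100 kb, and its longest was 74.3 kb. Whether reads could be placed within these gaps was not tested.

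Close neighbours were present in the sparse interior as elsewhere. A neighbour within 1 kb was found for 167 of 402 interior regions (41.5%) and for 336 of 660 distal regions (50.9%). The share was 36.5% before 30 Mb and 37.2% on the other chromosomes. The median gap between interior regions was 11.4 kb, against 3.29 kb in the distal part and 4.22 kb on the other chromosomes.

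Peak width was compared by the median of each library. The median width of long arm peaks was 217.5, 206 and 209.5 bp in the GFPplus libraries and 189.5, 180.5 and 294 bp in the GFPminus libraries. Before 30 Mb the medians were 236.5, 206 and 210 bp in GFPplus and 206, 197 and 263.5 bp in GFPminus. GFPminus replicate 3, the shortest list, had the widest peaks in both places. The log2 difference in width was −0.035 ± 0.112 (SD, n = 6) against chromosome 4 before 30 Mb, with an exact sign-flip p of 0.5625 (adjusted p = 0.5625). Against the other chromosomes it was −0.059 ± 0.090 (SD, n = 6), with an exact sign-flip p of 0.15625 (adjusted p = 0.281). The median was narrower in the long arm in 4 and 5 of 6 libraries, and the direction of both differences changed when lists of equal length were compared. Without GFPminus replicate 3 the differences were −0.074 (exact p = 0.125) and −0.090 (exact p = 0.0625, the smallest for 5 libraries). With the limit at 25 Mb they were −0.077 (exact p = 0.0625) and −0.089 (exact p = 0.03125), before adjustment.

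Peak strength was compared as the percentile of a peak's −log10 p within its own list, since scores of lists of different length are not on a common scale. The median long arm percentile was 43.7, 52.4 and 53.8 in the GFPplus libraries and 44.0, 43.6 and 52.0 in the GFPminus libraries. Of the 6 libraries, 3 were below 50 and 3 above. The mean difference was −1.78 ± 6.14 percentile points (SD, n = 6) from chromosome 4 before 30 Mb and −1.80 ± 4.93 (SD, n = 6) from the other chromosomes. Exact sign-flip tests gave p = 0.531 and 0.375 (adjusted p = 0.5625 and 0.482), so neither difference exceeded the spread between libraries. With each library left out in turn they ran from −2.91, without GFPminus replicate 3, to −0.11, without GFPminus replicate 2, and from −2.91, without GFPplus replicate 3, to −0.87, without GFPplus replicate 1. Peaks with a −log10 q of at least 5 gave −0.15 and −4.03 points. A fold of at least 5 gave −2.91 and −7.08, and equal list length −0.47 and −4.13. For the differences from the other chromosomes, the exact sign-flip p was 0.1875, 0.09375 and 0.09375 in turn, before adjustment. Along the arm the interior medians ran from 32.9 to 47.6 and the distal medians from 43.6 to 59.2. In GFPminus replicates 1 and 2 the medians of the 2 parts were equal, at 44.0 and 43.6. In each of the other libraries the interior median was the lower.

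The local background behind these scores differed between the interior and other places. The caller, MACS2, scores a peak against a local insertion rate that is not allowed to fall below a rate for the whole genome. In the interior, 58.7 to 74.4% of peaks per library were scored against this lowest rate. The share was 10.1 to 32.7% in the distal part, 14.4 to 30.8% before 30 Mb and 12.6 to 30.4% on the other chromosomes. Every library's interior share was above its own share in each of the other places. The pileup of fragments at the summit, solved from the deposited fold and −log10 p, had a median of 8 to 13 in the interior, 12 to 14 in the distal part and 11 to 15 before 30 Mb. The median background rate was 0.804 to 1.83 fragments in the interior, 1.15 to 2.24 in the distal part and 1.20 to 2.33 before 30 Mb. The part of this background in the peak calls was not tested.

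**Figure D3:**
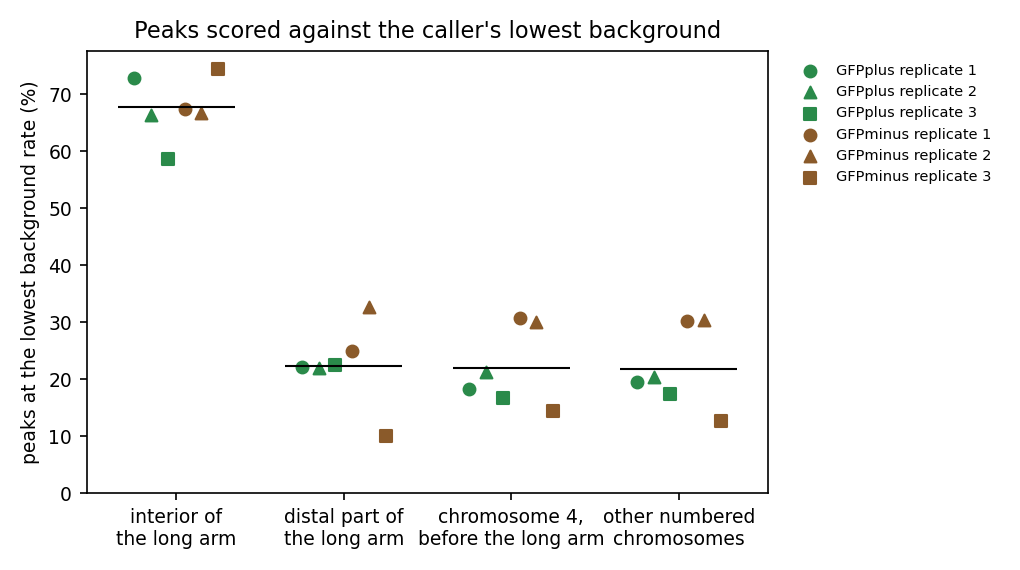
Percentage of each library's peaks that were scored against the lowest background rate, in 4 places. Each symbol is a library and the line is the mean over 6 libraries. The interior values, 58.7 to 74.4%, lie above all values in the other places.

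Most long arm regions had a peak in a single library. Of the 1062 regions, 583 (54.9%) had a peak in 1 library, 187 in 2, 109 in 3, 52 in 4, 43 in 5 and 88 (8.29%) in all 6. Before 30 Mb, 47.0% were seen in 1 library and 10.4% in all 6. On the other chromosomes the shares were 50.8% and 11.0%. With lists of equal length the order in all 6 libraries turned against chromosome 4 before 30 Mb, with 20.4% in the long arm, 18.0% before 30 Mb and 22.2% on the other chromosomes. The interior and the distal part lay apart at the upper end of this range. In the interior 14 of 402 regions (3.48%, exact 95% binomial interval 1.92 to 5.77%) were called in all 6 libraries, and in the distal part 74 of 660 (11.2%, interval 8.91 to 13.9%). These intervals cover counting error only. At equal list length, 8 of 123 interior regions (6.50%) and 55 of 186 distal regions (29.6%) were called in all 6, against 22.2% on the other chromosomes. Without GFPplus replicate 3, 18 of 371 interior regions (4.85%) and 82 of 650 distal regions (12.6%) were called in the remaining 5 libraries, against 12.9% on the other chromosomes.

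Per library, the share of long arm peaks that overlapped a peak of another library was 81.8, 86.1 and 80.6% in GFPplus and 66.4, 67.4 and 96.7% in GFPminus. The longest lists had the lowest shares and the shortest list the highest. The mean difference was −4.52 ± 4.62 percentage points (SD, n = 6) from chromosome 4 before 30 Mb, lower in 5 of 6 libraries, with an exact sign-flip p of 0.0625 (adjusted p = 0.1875). It was −2.83 ± 3.99 points (SD, n = 6) from the other chromosomes, lower in 4 of 6, with an exact sign-flip p of 0.125 (adjusted p = 0.281). Neither passed the threshold. Each library's share counts overlaps with the other libraries, so the 6 differences are not independent, as the sign-flip test assumes. GFPplus replicate 3 had the widest difference from chromosome 4 before 30 Mb, 80.6% against 92.0%. Without it the differences were −3.17 and −1.64 points. Without GFPminus replicate 1 they were −6.21 and −4.76 points, and the exact sign-flip p of each was 0.0625, the smallest that 5 libraries allow.

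GFPplus replicate 3 had the lowest sharing of the 6 libraries in the interior. There, 58.7% of its peaks overlapped a peak of another library, against 65.3 to 93.0% in the other 5 libraries. With all lists at equal length the share was 46.2%, against 74.4 to 88.9%. In the distal part at equal length its share was also the lowest, 88.2% against 89.9 to 92.5%, with a smaller distance to the others, and the difference between the parts was not tested. The Jaccard index, the number of regions called in both libraries of a pair over the number called in either, was compared as well. In the interior at equal length it was 0.139 to 0.234 for the 5 pairs with GFPplus replicate 3 and 0.246 to 0.482 for the other 10 pairs. In the deposited lists these ranges overlapped, at 0.111 to 0.242 and 0.139 to 0.377. In the distal part at equal length the 2 sets of pairs ran from 0.519 to 0.593 and from 0.534 to 0.667. GFPplus replicate 3 was singled out after these values were seen, so no test was made.

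**Figure D4:**
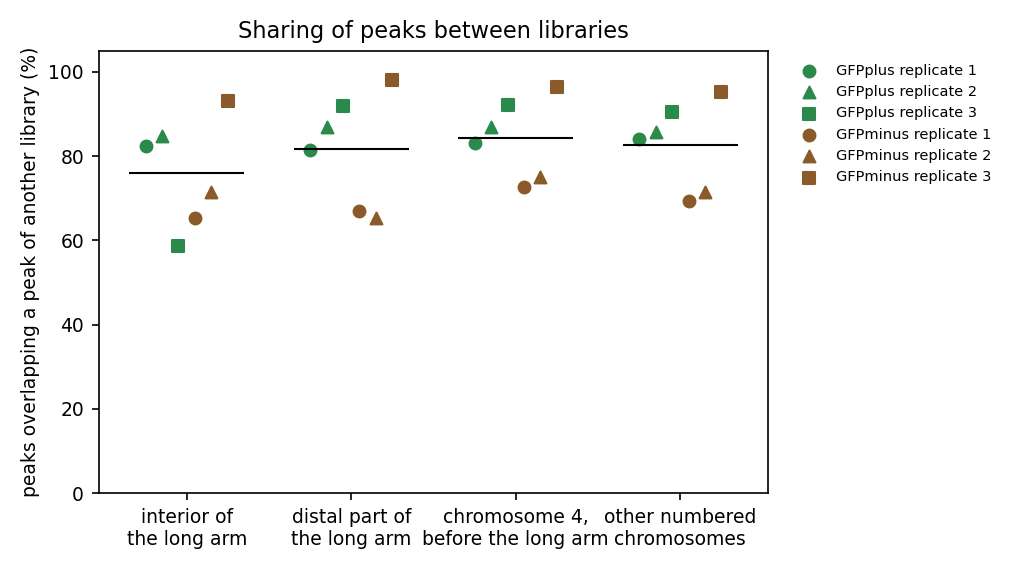
Percentage of each library's peaks that overlap a peak of another library, in the interior, the distal part and 2 other places. Each symbol is a library and the line is the mean over 6 libraries. GFPplus replicate 3 lies at 58.7% in the interior and at 91.8% in the distal part.

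Whether libraries of the same fraction shared more regions than libraries of different fractions was described with the same index. At equal list length, the mean Jaccard index in the long arm was 0.494 within a fraction and 0.480 between fractions. On the other chromosomes it was 0.568 within and 0.458 between, and before 30 Mb it was 0.523 and 0.415. The gap between the 2 means was 0.015 in the long arm, 0.110 on the other chromosomes and 0.108 before 30 Mb. The gap was −0.012 in the interior and 0.029 in the distal part. Without GFPplus replicate 3 the gap was 0.011 in the long arm, 0.098 on the other chromosomes and 0.096 before 30 Mb, and in the interior it turned to 0.0028. In the deposited lists the gap was 0.00051 in the long arm and 0.040 on the other chromosomes, and without GFPplus replicate 3 it was −0.022 and −0.0012. The means are over pairs that share libraries, 6 within and 9 between fractions when all libraries are used, and they are given with no test.

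GFPplus lists placed 0.468, 0.499 and 0.441% of their peaks in the long arm, and GFPminus lists 0.582, 0.555 and 0.455%. The fractions overlapped, since GFPminus replicate 3 lay below GFPplus replicates 1 and 2. The means were 0.469 ± 0.029% (SD, n = 3) and 0.530 ± 0.067% (SD, n = 3), a difference of −0.061 points, and an exact permutation test of 3 against 3 gave p = 0.3 (adjusted p = 0.45), where 0.1 is the smallest value possible. At equal list length the means were 0.466 ± 0.023% and 0.450 ± 0.006% (SD, n = 3 each). The order of the fractions was then reversed. With the deposited lists the difference was −0.099 points without GFPminus replicate 3 (exact permutation p = 0.1) and −0.036 without GFPminus replicate 1 (p = 0.6 by the same exact test).

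Few long arm regions separated the fractions completely. A region called in all 3 GFPplus libraries and in no GFPminus library was found 3 times among 1062 (0.282%), where 1.22% of all 187225 regions met that rule. The opposite pattern was found 5 times (0.471%), where 0.851% of all regions met it. Before 30 Mb the shares were 1.72% and 0.784%. At equal list length 2 of 309 long arm regions were GFPplus-only, against 3.54% of all regions, and 1 was GFPminus-only, against 3.40%. Of the 109 long arm regions called in exactly 3 libraries, 2.75% were GFPplus-only and 4.59% GFPminus-only, against 13.1% and 9.18% on the other chromosomes. When 2 of 3 libraries were enough, 19 regions (1.79%) were GFPplus-only, against 3.48% of all, and 94 (8.85%) were GFPminus-only, against 8.43% of all. The stricter counts moved with single lists. Without GFPplus replicates 1, 2 and 3 in turn the GFPplus-only count was 6, 7 and 12 (0.595, 0.689 and 1.18% of members), where 1.55, 2.41 and 2.26% of all regions met the rule. Without GFPminus replicate 1 it was 5 (0.585%), against 2.15% of all. The GFPminus-only count was 89 (8.40%) without GFPminus replicate 3, against 8.07% of all, and 12 (1.18%) without GFPplus replicate 2, against 1.64% of all.

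The 3 GFPplus-only regions were 1 in the interior (0.249% of its regions) and 2 in the distal part (0.303%), against 1.22% of all regions. At chr4:35407807-35408069 in the interior the deposited fold enrichment was 4.24, 5.79 and 5.44 in GFPplus replicates 1, 2 and 3. At chr4:60146233-60146586 it was 3.40, 3.82 and 4.26, and at chr4:60520601-60520851 it was 4.24, 3.13 and 5.44, both in the distal part. Their percentiles ran from 1.64 to 65.8, and their summit pileups from 8 to 14 fragments. Fold enrichment is the authors' value for a single peak, the pileup over the background, and is given here to describe peaks within each list.

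Of the 5 GFPminus-only regions, 4 lay in the interior. At chr4:54041655-54041821, the strongest by its lowest −log10 p, the fold was 4.67, 5.65 and 4.99 in GFPminus replicates 1, 2 and 3. At chr4:44295448-44295924 it was 3.68, 4.92 and 5.87. At chr4:40322386-40322680 it was 3.95, 6.36 and 3.88. The 2 others were chr4:33222167-33222494, with 3.59, 3.53 and 4.34, and chr4:60754592-60754911 in the distal part, with 5.03, 4.24 and 3.88. Summit pileups of the 5 regions ran from 6 to 17 fragments, and their percentiles from 6.77 to 76.9, so some peaks were below and some above the middle of their lists.

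Among the 88 regions called in all 6 libraries, which both fractions share by that choice, the 5 with the highest lowest-library −log10 p lay in the distal part, in the windows that begin at 59 and 60 Mb. Some interior regions, described further on, had higher folds in single lists. The first, chr4:60231999-60232403, had a fold of 23.2, 22.4 and 21.6 in GFPplus and 23.1, 16.7 and 18.9 in GFPminus. It was in the upper 0.277% of every list, with 70 to 170 fragments at the summit, and the fractions overlapped. The second, chr4:60359536-60360448, had 11.4, 13.3 and 11.4 in GFPplus and 16.8, 12.3 and 13.2 in GFPminus. The next, chr4:59479482-59480389, had 16.6, 14.0 and 13.8 in GFPplus and 13.4, 11.9 and 15.5 in GFPminus. The remaining pair, chr4:59352344-59353160 and chr4:60245932-60246625, had folds of 9.92 to 12.6 and 11.4 to 17.5. All 5 were at or above the 95.2 percentile in every list.

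Regions called in all 6 libraries had a larger median width in the distal part than elsewhere. It was 658 bp there, against 576.5 bp in the interior, 575 bp before 30 Mb and 590 bp on the other chromosomes. The 6 summits fell within 100 bp of each other in 27 of 74 distal regions (36.5%) and 4 of 14 interior regions. The share was 38.7% before 30 Mb and 43.0% on the other chromosomes. In 9 of the 74 distal regions (12.2%) the peak was in the upper 10% of all 6 lists, against 0 of the 14 interior regions. That share was 9.98% before 30 Mb and 11.0% on the other chromosomes. On 5 occasions such regions followed each other within 1 kb, and the longest run held 4 regions at chr4:61295821-61299871. Folds in that run were 2.07 to 4.34, while percentiles reached 97.8.

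Among the 14 interior regions called in all 6 libraries, the highest fold was a median of 1.32 times the median over libraries, against 1.24 in the distal part and 1.25 on the other chromosomes. The region with the highest lowest-library −log10 p was chr4:36409684-36410762, with a fold of 10.8, 12.3 and 11.3 in GFPplus and 13.0, 13.9 and 9.25 in GFPminus. At chr4:38891117-38891659 the fold was 21.6, 22.9 and 6.52 in GFPplus and 25.5, 26.7 and 9.98 in GFPminus. At chr4:40528980-40529849 it was 16.2, 12.0 and 5.98 in GFPplus and 15.1, 11.7 and 6.10 in GFPminus. At both of these, the libraries numbered 1 and 2 were above those numbered 3 in both fractions, while the fractions overlapped. Regions in which all 4 libraries numbered 1 and 2 were above both numbered 3 made up 3 of the 14, against 14.4% of the regions called in all 6 on the other chromosomes. The opposite order, both libraries numbered 3 above the other 4, was found in 2 of the 14 and in 7 of the 74 distal regions, against 3.63% on the other chromosomes.

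One of these was chr4:39245400-39245717. The fold there was 6.16, 7.34 and 50.3 in GFPplus and 6.83, 6.00 and 13.3 in GFPminus. GFPplus replicate 3 stood far above the rest, and GFPminus replicate 3 was second. In GFPplus replicate 3 this peak ranked 4 in the list, with a deposited −log10 p of 349.62. Its summit pileup in that list was not solved to within 0.002 and is not given. In the other 5 libraries the summit pileup was 15 to 23 fragments. The fold in GFPplus replicate 3 was 7.10 times the median of the 6 libraries. The largest such ratio among the 19265 regions called in all 6 libraries on the other chromosomes was 2.85, and in the distal part it was 2.30.

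In all, 17 interior regions had a peak in the upper 10% of at least 1 list, and they were singled out after their values were seen. In 6 of them the fold was higher in each of the 4 libraries numbered 1 and 2 than in any list numbered 3, a missing peak counted as lower. Of the regions of the other chromosomes with a peak in the upper 10% of any list, 16.4% showed this order, and in the distal part 9 of 48 did. One of these, chr4:30416403-30416588, had 18.5, 27.0 and 9.24 in GFPplus and 27.3, 30.7 and no peak in GFPminus. Another, chr4:39143425-39143834, had 9.63 and 15.1 in GFPplus replicates 1 and 2, 15.8 and 8.12 in GFPminus replicates 1 and 2, and no peak in the lists numbered 3. A further one, chr4:43973093-43973347, had 14.6 and 12.0 in GFPplus, 7.19 and 9.89 in GFPminus, and again no peak in the lists numbered 3. The 2 libraries numbered 3 have the shortest lists of their fractions. They also have the lowest genome rates, 0.839 and 0.804 fragments, against 1.59 to 1.83 in the other 4 lists. Fold was solved with 1 fragment added to both pileup and background, so folds of different lists are not on a common scale. The part of list length and of these rates in the order of libraries, here and among regions called in all 6, was not tested. The labels used here do not say whether libraries with the same number came from the same occasion.

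**Figure D5:**
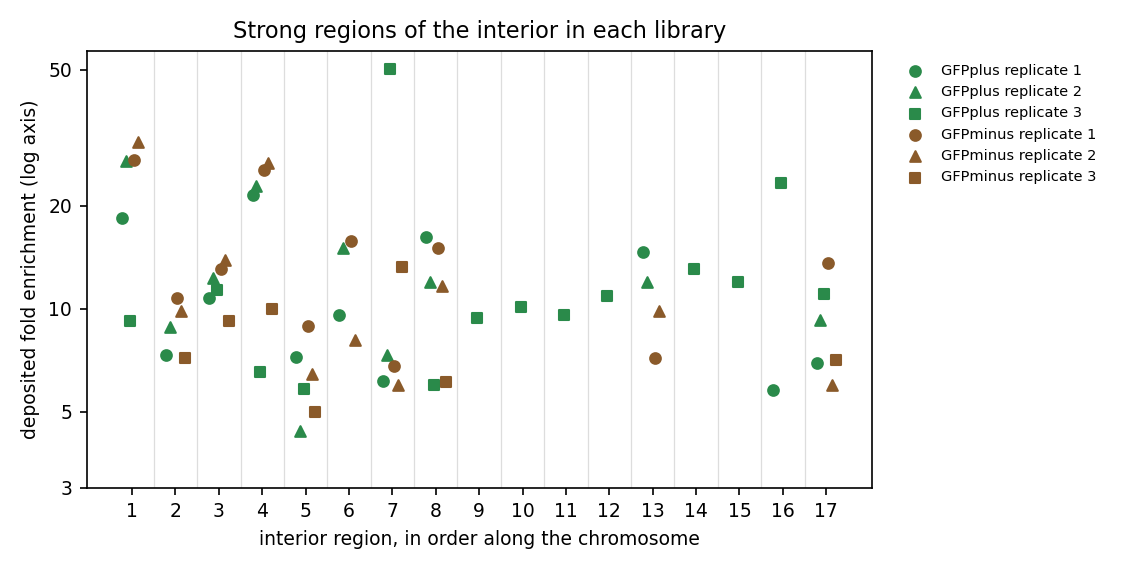
Deposited fold enrichment, on a log axis, in each library at the 17 interior regions with a peak in the upper 10% of any list, in order along the chromosome. A missing symbol means that the library had no peak. At the seventh region GFPplus replicate 3 reaches 50.3, and 6 regions have a symbol of GFPplus replicate 3 alone.

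Another 6 of the 17 were seen in GFPplus replicate 3 alone. On all numbered chromosomes 17 single-library regions ranked in the upper 10% of their own list, out of 91713 single-library regions. Of these, 15 were of GFPplus replicate 3 and 6 lay in the interior. The interior members were at 43.69 Mb (4 of them), at chr4:44804321-44804742 with a fold of 13.0 and at chr4:45062563-45062696 with a fold of 12.0. The group at chr4:43689954-43693355 held 5 peaks of this library within 3402 bp, with folds of 5.47 to 10.9 and summit pileups of 23 to 47 fragments. The local background there was 3.25 to 3.39 fragments, against a genome rate of 0.839 in that list. No other library had a peak at any of the 5. A further region, chr4:45075226-45075557, had a fold of 23.3 in GFPplus replicate 3, 5.78 in GFPplus replicate 1 and no peak elsewhere.

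At the start of the arm, the members just inside the 30 Mb limit were chr4:30015395-30015708, called in 4 libraries with folds of 5.02 to 6.36, and 2 regions of 1 library at chr4:30090636-30090751 and chr4:30091472-30091736, with folds of 5.44 and 7.07. Those just outside were chr4:29996910-29997368, called in 5 libraries with folds of 4.35 to 9.34, chr4:29673858-29673967, called in 1 with a fold of 5.03, and chr4:29661300-29661493, called in 3 with folds of 3.48 to 4.67. The folds on the 2 sides of the limit overlapped. The windows that begin at 25 and 26 Mb held 36 and 87 regions, so the counts dipped and rose again before the limit. Those at 27, 28 and 29 Mb held 133, 102 and 30 regions, and those at 30 and 31 Mb held 12 and 5. The fall in the number of regions therefore began before the limit.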

How the data were processed

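ATAC-seq peaks of 3 GFPplus and 3 GFPminus libraries were analysed. The submitters' processing notes list, without settings or order, Bowtie2 2.1.0, cutadapt 1.3, MACS2 and deepTools. The same notes give the build as Zv9 (danRer7). How reads that align to several places were handled is not given in the sources used here. Deposited lists, 1 per library, hold for each peak a score, a fold enrichment (a ratio), a −log10 p and a −log10 q, all as the authors' peak caller wrote them. The lowest deposited −log10 q was 1.30. The authors' summit offset was read as the position of highest pileup.

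Peaks overlapping by at least 1 bp were merged with pandas 2.3.3 and numpy 2.4.6 in Python 3.11.15. Tests were run with scipy 1.17.1. Coordinates are 1-based. The whole summit pileup and background rate were solved from fold and −log10 p to within 0.002 for at least 99.875% of peaks in each list. On simulated peaks made with the same formula, 100% of 19666 pileups were recovered, which checks the solving step only. The simulated pileups did not reach the highest ones given here. A simulated log2 density ratio set to −2.0 for the long arm against the other chromosomes came back as −2.02. Comparisons of places used an exact sign-flip test over 6 libraries, and the comparison of fractions an exact permutation test, both two-sided. Regions were named by a rule: the 5 strongest called in all 6 libraries, the fraction-only regions, up to 5 each, the 3 windows with most and the 3 with fewest regions (ties kept), and the 3 regions on either side of 30 Mb. The members, lists and tests were chosen with earlier results of these data known, and the 58 Mb step, the gaps and the strong interior regions were singled out after their values were seen. Alternatives were stricter calls, lists of equal length, other overlaps, limits and call rules, and each library left out. No sequence and no gene annotation was used.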

Additional observations from a re-analysis of the deposited data

How the results depend on the processing

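Peak density stayed lower in the long arm under every alternative tried. With each library left out in turn it ran from −2.28 to −2.18 (log2) against chromosome 4 before 30 Mb and from −2.28 to −2.20 against the other chromosomes. Against chromosome 4 before 30 Mb, the width difference turned to 0.027 when peaks needed a −log10 q of 5 or more and to 0.082 at equal list length. Against the other chromosomes it turned to 0.014 at equal list length. The share of peaks in the long arm, GFPplus minus GFPminus, turned to 0.0031 points with a fold of 5 or more and to 0.016 at equal list length. For these reversals the cause was not tested. The differences in the share of overlapping peaks, from chromosome 4 before 30 Mb and from the other chromosomes, stayed negative under every alternative. An overlap of 50% of the shorter peak gave −5.81 and −3.78 points (exact sign-flip p = 0.03125 each, adjusted p = 0.0703). Summits widened by 100 bp gave −4.71 and −3.31. Lists of equal length gave −1.85 and −2.94, with exact sign-flip p of 0.65625 and 0.1875. The share of regions called in all 6 libraries was 13.8% with a −log10 q of at least 5, 15.1% with a fold of at least 5 and 20.4% with lists of equal length. The share called in 1 library was then 45.7%, 44.6% and 40.8%, and 60.0% when an overlap of 50% of the shorter peak was required. GFPplus-only regions numbered 1 with a fold of at least 5 (0.308% of members, against 2.89% of all regions), 5 with the limit at 25 Mb (0.345% against 1.22%) and 19 when 2 of 3 libraries were enough. GFPminus-only regions numbered 1 with a −log10 q of at least 5 (0.247% against 1.52%), 0 with a fold of at least 5 (2.21% of all), 1 with lists of equal length and 94 when 2 of 3 were enough. No test was run on these counts. With each library left out, the shares called in all remaining libraries and in 1 library ran from 8.92 to 10.5% and from 54.9 to 59.7%. The counts ran from 3 to 12 GFPplus-only and from 5 to 89 GFPminus-only regions, where 1.27 and 2.26%, and 0.999 and 8.07%, of all regions met the rules at those ends. Leaving out GFPplus replicate 3, chosen after its values were seen, turned the interior gap in Jaccard index between pairs within and between fractions from −0.012 to 0.0028.

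The labels used here do not say whether a replicate number marks a shared occasion. Over all regions, the deviations of same-numbered libraries correlated at −0.012, 0.020 and 0.011. Differently numbered libraries of the 2 fractions correlated at −0.043 to 0.035, so these values cannot decide whether the numbers are pairs. Without a statement in the labels, the numbers were not used as pairs. In 6 of the 17 strong interior regions, the libraries numbered 1 and 2 were above those numbered 3 in both fractions. The same order was found in 16.4% of the strong regions of the other chromosomes. Folds of different lists are not on a common scale, so this order cannot decide on pairs either. With the replicate block the share difference was −0.114, −0.056 and −0.014 points for numbers 1, 2 and 3, lower in GFPplus each time. The mean was still −0.061 points (exact sign-flip p = 0.25, the smallest that 3 pairs allow). The fraction-only counts stayed 3 and 5 by construction. Sequencing depth was not analysed, and only peaks that passed the caller could be compared. The caller's rate for the whole genome, solved from the lists, was 1.60, 1.59 and 0.839 fragments in GFPplus replicates 1, 2 and 3. It was 1.78, 1.83 and 0.804 in GFPminus replicates 1, 2 and 3, so it was lowest in both libraries numbered 3.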
